A study of Mus musculus with 22 samples.

Results

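The transcripts of 9 potassium channel genes of the mouse ventricle were followed across 22 left ventricular RNA libraries: Kcnj11, Abcc9, Abcc8, Kcnd2, Kcnd3, Kcnip2, Kcna5, Kcnq1 and Kcnj2. They were chosen by name, as 9 of the 30735 genes measured. All mice were FVB, aged 3 to 5 months, and were wild type (WT) or transgenic for VCP (VCP TG). This protein is an ATPase that pulls ubiquitinated proteins out of complexes, and the sources used here name no promoter for the transgene. A band around the aorta (TAC, transverse aortic constriction) loaded the left ventricle, and control mice were sham operated. The 2-week table holds 4 libraries each of WT sham, VCP TG sham and WT TAC, and 3 of VCP TG TAC. The 5-week table holds 4 libraries of WT TAC and 3 of VCP TG TAC; sham hearts of that time were not analysed here.

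Potassium channels carry the outward current that ends the action potential and hold the resting voltage of the myocyte. In the mouse ventricle the early, fast phase is carried by the transient outward current, the later phases by delayed rectifiers, and the resting voltage is set by the inward rectifier. ATP-sensitive (K-ATP) channels stay closed while ATP is plentiful and open under metabolic stress. Loss of potassium channel transcripts is a known feature of hypertrophied and failing hearts.

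The 9 genes fall into 4 roles. Kcnj11 encodes Kir6.2, the pore of the K-ATP channel, and Abcc9 and Abcc8 encode SUR2 and SUR1, the regulatory subunits that sense nucleotides. Kcnd2 and Kcnd3 encode the pores of the fast transient outward current, and Kcnip2 encodes KChIP2, the small calcium-binding subunit that brings those pores to the cell surface. Kcna5 and Kcnq1 encode pores of delayed rectifier currents. Kcnj2 encodes the main pore of the inward rectifier current. In GRCm38 (GENCODE M21) Kcnj11 (ENSMUSG00000096146, chromosome 7, 46093953 to 46100764, minus strand) lies 3758 bases from Abcc8 (ENSMUSG00000040136, chromosome 7, 46104523 to 46180033, minus strand). Abcc9 (ENSMUSG00000030249) lies on chromosome 6, 142587862 to 142702315, minus strand, 16247 bases from Kcnj8, the other K-ATP pore. Kcnip2 (ENSMUSG00000025221) lies on chromosome 19, 45791839 to 45816061, minus strand. Kcnq1 is overlapped on the opposite strand by Kcnq1ot1, Kcnd3 by Kcnd3os and Abcc9 by 5330439B14Rik. The 3 antisense genes were not analysed here. The library kit marks strand, but the sources used here do not say whether counting used it, so reads of such partners may not be separated.

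RefSeq promoters (GRCm38.p6, the 250 bases before the annotated start) were found for 6 of the 9 genes. Those of Abcc9 and Kcnip2 are shown because their levels varied together across libraries. That of Kcnj2 is shown because its TPM (defined below) did not overlap between the TAC groups of 2 weeks. Of all genes, 19.0% lay higher without overlap in VCP TG there, and after rescaling (below) the levels of Kcnj2 overlapped. Capitals mark matches, on either strand, to the GC box GGGCGG and the E-box CACGTG. The TATA box TATAAA and the GATA motif AGATAA were also searched and had no match in these 3 promoters.
Abcc9 (chr6:142702275-142702524, minus strand): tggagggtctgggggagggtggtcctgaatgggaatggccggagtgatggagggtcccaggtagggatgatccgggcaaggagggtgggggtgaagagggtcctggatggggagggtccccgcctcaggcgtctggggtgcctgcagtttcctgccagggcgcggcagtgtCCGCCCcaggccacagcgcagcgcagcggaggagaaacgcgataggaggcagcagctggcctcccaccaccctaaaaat
Kcnip2 (chr19:45816064-45816313, minus strand): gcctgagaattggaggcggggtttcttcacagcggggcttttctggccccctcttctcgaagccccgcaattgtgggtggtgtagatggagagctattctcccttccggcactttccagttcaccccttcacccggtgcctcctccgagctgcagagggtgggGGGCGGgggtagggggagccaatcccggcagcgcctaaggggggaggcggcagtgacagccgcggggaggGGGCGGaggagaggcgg
Kcnj2 (chr11:111065914-111066163, plus strand): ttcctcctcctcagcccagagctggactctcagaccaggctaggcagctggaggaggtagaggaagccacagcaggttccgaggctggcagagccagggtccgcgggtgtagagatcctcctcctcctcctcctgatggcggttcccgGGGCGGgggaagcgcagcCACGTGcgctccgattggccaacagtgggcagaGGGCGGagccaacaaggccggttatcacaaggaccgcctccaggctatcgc
Kcnip2 and Kcnj2 held 2 GC boxes each, Kcnj2 held 1 E-box, and Abcc9 held 1 GC box on the opposite strand, printed as CCGCCC. Kcnd2 held 1 GC box, and Kcnd3 and Kcna5 held none of the 4 motifs. Of 27025 mouse promoters of the same length, 32.9% hold the GC box, 6.05% the E-box, 13.0% the TATA box and 10.3% the GATA motif. The 6 promoters had 53.2% to 68.8% G and C, against a median of 52.0% over all promoters.

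Levels are in TPM, a share of all transcripts corrected for transcript length, as mean ± SD over libraries. Differences are in log2(TPM + 1), with the standard error after ±. A gene is called where its limma p, adjusted over all genes tested, is under 0.05; all 9 members passed the filter of 1 TPM in each fit that used it. The labels do not say whether libraries came from separate animals, so p-values measure the spread between libraries. In bulk tissue, fewer cells of a type and less RNA per cell cannot be told apart. Read depth is unknown. Mitochondrial genes took 27.9% to 72.9% of TPM, with the highest share in VCP TG sham replicate 4. All 10 ventricular myocyte markers were present in every group, with summed levels of 17445 to 37888 TPM. In 4 libraries, VCP TG sham replicates 3 and 4, VCP TG 2 weeks TAC replicate 2 and the library labelled WT 2 weeks TAC replicate 1, the 7 atrial markers summed to 1738 to 10799 TPM, against at most 569 TPM in the other libraries of the 2-week table. Vcp was checked against the labels: rescaled to the sum over nuclear protein-coding genes (rescaled TPM), it was 114 to 215 in 11 libraries and 259 to 512 in the other 11. This set 5 libraries with the other genotype: those labelled VCP TG sham replicate 1, WT 2 weeks TAC replicate 1, WT 5 weeks TAC replicates 2 and 3 and VCP TG 5 weeks TAC replicate 3. Before rescaling, Vcp of VCP TG sham replicate 1 was 89.1 TPM, above every WT sham library (45.7 to 82.6 TPM). That of VCP TG sham replicate 4, at 73.5 TPM, lay below WT sham replicate 2. The placing of VCP TG sham replicate 1 therefore depended on the scaling. All directions between genotypes follow the labels.

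In WT sham hearts 3 genes stood well above the rest. Abcc9 was at 64.0 ± 22.5 TPM (n = 4), Kcnip2 at 48.3 ± 20.6 and Kcnj11 at 32.5 ± 6.98. The ranges of these 3 overlapped from neighbour to neighbour, and that of Kcnj11 lay above that of Kcnq1 (10.9 ± 1.19). Then followed Kcna5 (8.09 ± 4.03), Abcc8 (7.05 ± 1.85), Kcnd2 (7.04 ± 3.62), Kcnj2 (6.40 ± 1.36) and Kcnd3 (4.94 ± 1.53), each overlapping the next. Among the 12317 protein-coding genes with a mean of at least 1 TPM in WT sham, Abcc9 lay above 94.4% and Kcnd3 above 38.2%. The accessory subunit stood above its pores, with 7.43 ± 2.52 TPM of Kcnip2 per TPM of Kcnd2. Abcc9 and Kcnip2 led the order in all 6 groups by mean, while Kcnj11 was the third in all groups but VCP TG sham.

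**Figure D1:**
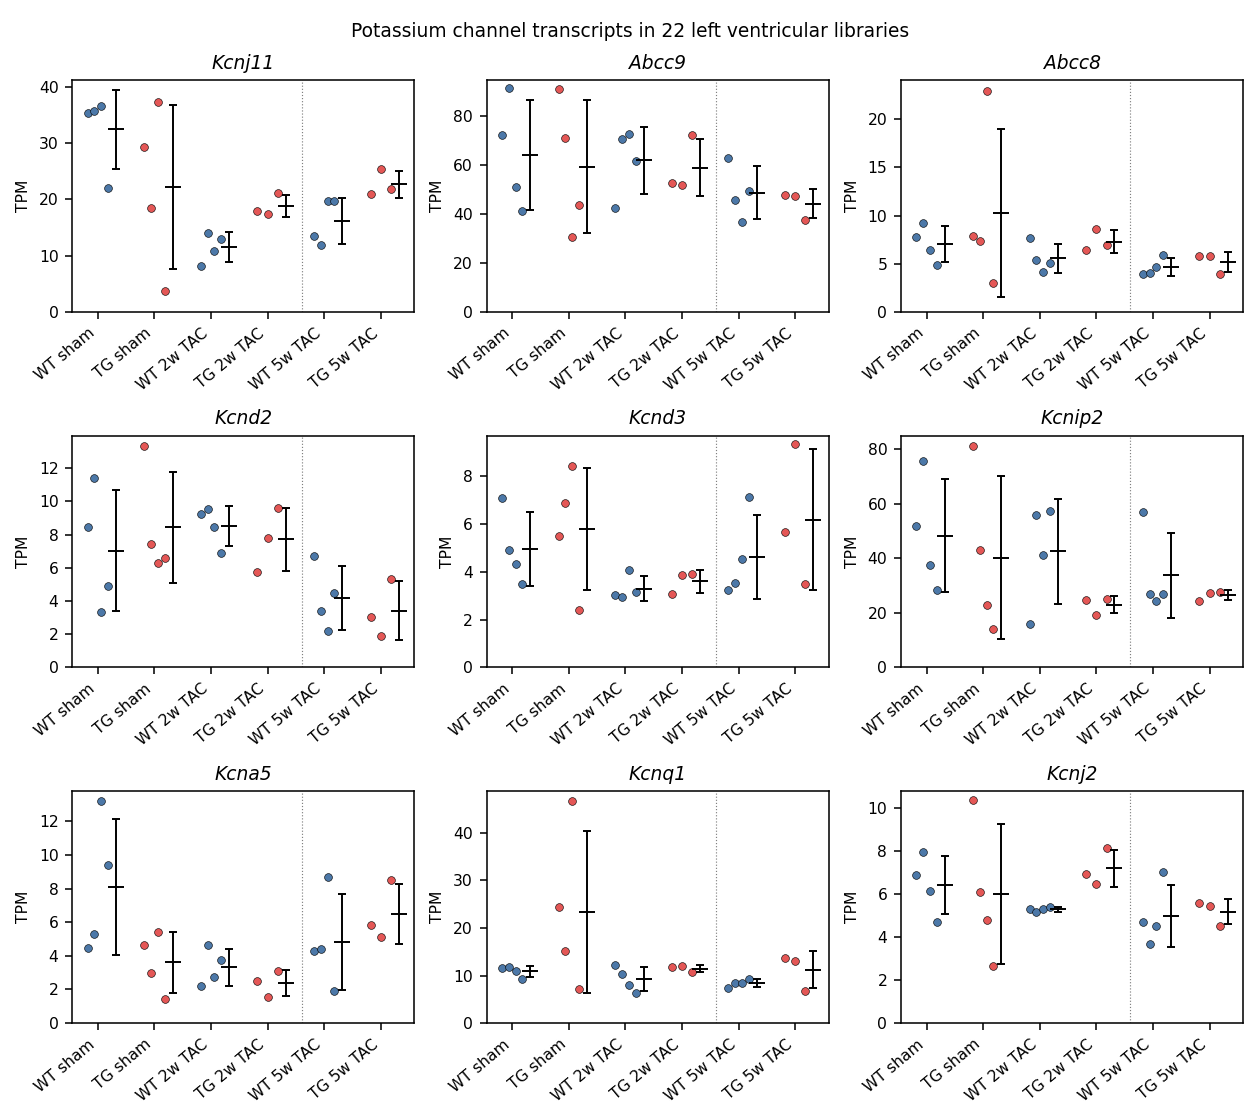
TPM of each potassium channel gene (vertical axes, from 0) in each of the 22 libraries, by group (horizontal axis; TG, VCP TG; w, weeks); points are libraries, bars beside them are mean ± SD, and the dotted line parts the 2-week from the 5-week table. The 4 WT 2 weeks TAC libraries of Kcnj11 (8.19 to 14.1 TPM) lie below all 4 WT sham libraries (22.03 to 36.6 TPM), and most other groups overlap.

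The K-ATP pore gene was the member that stood lowest under load relative to sham in WT hearts. Kcnj11 was at 35.4, 35.8, 36.6 and 22.03 TPM in the WT sham libraries and at 8.19, 14.1, 10.9 and 13.0 TPM in the WT 2 weeks TAC libraries. The highest TAC value lay below the lowest sham value. The difference was -1.41 ± 0.46 in the fit of all 4 groups (limma adjusted p = 0.331), which did not pass the test. That fit called 0% of 15540 genes in this comparison and 0 of the 9 members. In it 11.4% of genes and 2 of 9 members, Kcnj11 and Kcna5, had an unadjusted p under 0.05. In the fit of the 8 WT libraries alone Kcnj11 fell by 1.41 ± 0.21 (limma adjusted p = 0.0120) and was the only one of 9 members called lower, against 6.31% of 13709 genes. Non-overlap downwards was seen in 1 of 9 members and in 13.7% of all genes, so it is common in this comparison. Kcnj11 had a lower log2 difference than all but 0.444% of genes.

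The fall of Kcnj11 in the 8 WT libraries held in 13 of 13 alternatives of that fit, with log2 differences of -1.58 to -1.02 and adjusted p of 0.00534 to 0.0491. Of these, the alternative without atrial-rich libraries is the same fit as the one without WT 2 weeks TAC replicate 1. Kcnj11 was called in 4 of 22 alternatives to the fit of all groups. These include the fit of the 8 WT libraries alone and that fit rescaled, which are not separate from the result above. Array weights in the fit of all groups also called it. Among these 4 was the fit that left out the 4 libraries rich in atrial transcripts (-1.27 ± 0.21, adjusted p = 0.0109), where 7.40% of genes were called lower and Kcnj11 was the 1 of 9 members called. Transcripts rich in G and C were lower under TAC in general: over 10 bins of equal size, the median log2 difference went from 0.12 in the bin with the least GC to -0.41 in the bin with the most. Kcnj11, at 57.6% GC, belongs to that last bin, and 0.849% of the genes in it lay lower still. With the trend on GC removed, the difference in the 8 WT libraries was -1.02 ± 0.18 (adjusted p = 0.0445). That step turned the calls of the fit from 99 genes higher and 865 lower to 89 higher and 38 lower, with Kcnj11 among the calls both times. Rescaled Kcnj11 was 78.01 to 109 TPM in WT sham and 23.8 to 42.3 TPM in WT TAC, again with no overlap.

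**Figure D2:**
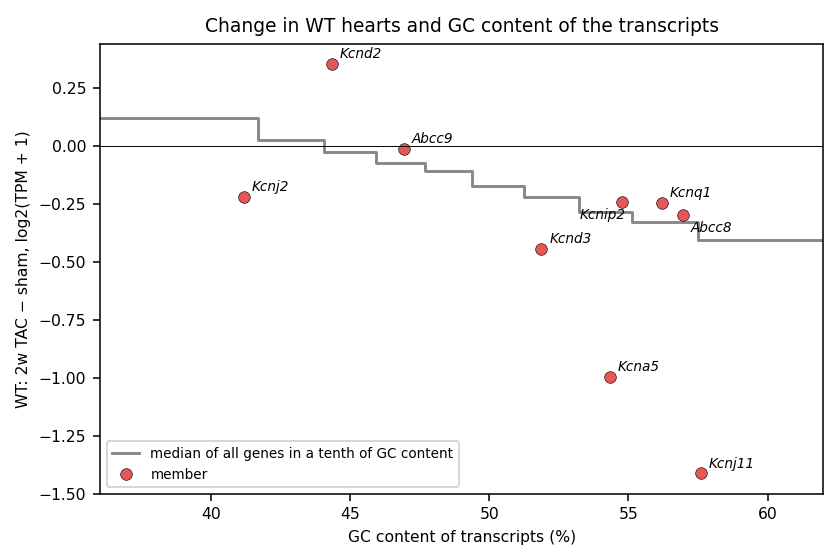
Log2(TPM + 1) difference between WT 2 weeks TAC and WT sham in the fit of all groups (vertical axis) against the GC content of a gene's transcripts in percent (horizontal axis); the grey steps are medians of all genes in 10 bins of GC content and the points are the 9 channel genes. The steps descend from 0.12 to -0.41, and Kcnj11 (-1.41) and Kcna5 (-0.997) lie well under them.

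The regulatory subunit that pairs with this pore in the ventricle gave no such difference. Abcc9 was at 72.3, 91.5, 50.8 and 41.3 TPM in WT sham and at 42.4, 70.6, 72.7 and 61.7 TPM in WT TAC, with a difference of -0.01 ± 0.32 (adjusted p = 0.990). Kcnj8, whose product forms K-ATP pores in vascular smooth muscle, was 8.51 ± 3.28 TPM in WT sham and 9.93 ± 0.769 TPM under TAC (0.27 ± 0.27, adjusted p = 0.704). Abcc8, the SUR1 gene, was 7.05 ± 1.85 TPM without load and 5.55 ± 1.53 TPM with it, with overlapping ranges. A ratio of 2 genes within a library is free of the scaling of that library, but not of the trend on GC. Kcnj11 (57.6% GC) and Abcc9 (46.9% GC) lie in bins with median log2 differences of -0.41 and -0.07, and the part of this in the ratio was not tested. There were 0.489, 0.391, 0.721 and 0.533 TPM of Kcnj11 per TPM of Abcc9 in WT sham and 0.193, 0.200, 0.150 and 0.211 in WT TAC. The highest TAC ratio lay below the lowest sham ratio. Summed smooth muscle and pericyte markers overlapped between these groups (174 to 297 TPM in sham, 203 to 294 TPM in TAC), as did ventricular myocyte markers (24118 to 34660 and 21539 to 26964 TPM). In the fit of all groups 9982 of 15540 genes had a log2 difference below 0. So did 8 of 8 endothelial markers, 8 of 10 ventricular myocyte, 6 of 8 smooth muscle and pericyte, 1 of 6 fibroblast, 1 of 6 macrophage and 0 of 7 atrial markers. The endothelial markers summed to 325 to 422 TPM in sham and 222 to 242 TPM in TAC, and the part of these cell types in the result was not tested.

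In VCP TG hearts Kcnj11 had no such separation. The VCP TG sham libraries held 29.4, 18.6, 37.4 and 3.76 TPM and the VCP TG 2 weeks TAC libraries 18.01, 17.4 and 21.1 TPM, inside the sham range. The difference was 0.12 ± 0.49 (adjusted p = 1), and without VCP TG sham replicate 4, the library at 3.76 TPM, it was -0.52 ± 0.26 (adjusted p = 0.264). The fit called 0.772% of genes and 0 of 9 members, and 8.77% of genes and 0 of 9 members had an unadjusted p under 0.05. No member had groups without overlap, against 4.02% of all genes in either direction. The difference between the genotypes in the response to TAC was itself tested: for Kcnj11 it was 1.53 ± 0.67 (unadjusted p = 0.0357, adjusted p = 0.872). It did not pass, and without VCP TG sham replicate 4 it was 0.89 ± 0.35 (adjusted p = 0.788). That test called 0.00644% of genes and 0 of 9 members, and Kcnj11 was the 1 of 9 members with an unadjusted p under 0.05, against 5.01% of genes.

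Under load the VCP TG libraries held more Kcnj11 TPM than the WT libraries at both times, and after rescaling the groups overlapped. At 2 weeks the VCP TG TAC libraries (17.4 to 21.1 TPM) lay above all WT TAC libraries (8.19 to 14.1 TPM), with a difference of 0.68 ± 0.49 (adjusted p = 0.859), or 0.68 ± 0.18 in the 7 TAC libraries alone (adjusted p = 0.0777). Neither passed the test. At 5 weeks the VCP TG libraries stood at 20.9, 25.4 and 21.9 TPM and the WT libraries at 13.4, 11.97, 19.7 and 19.7 TPM, without overlap in TPM, with a difference of 0.49 ± 0.22 (unadjusted p = 0.0458, adjusted p = 0.904). These comparisons share no library. The 5-week fit called 0.00715% of genes and 0 of 9 members. Kcnj11 was the 1 of 9 members with an unadjusted p under 0.05 there, against 4.49% of genes, and the 1 of 9 higher without overlap, against 3.40% of genes. Vcp went against the label in WT replicate 1 under 2 weeks of TAC. At 5 weeks it did so in WT replicates 2 and 3 and VCP TG replicate 3. Without these libraries the 5-week difference of Kcnj11 was 0.48 ± 0.30 (limma adjusted p = 0.840). Per TPM of Abcc9 there were 0.342, 0.334 and 0.292 TPM of Kcnj11 in VCP TG at 2 weeks, above the 4 WT TAC ratios. At 5 weeks the ratios were 0.437 to 0.583 in VCP TG and 0.214 to 0.535 in WT, which overlap. Per TPM of Kcnj2 the TAC groups of 2 weeks overlapped as well (1.55 to 2.74 in WT, 2.60 to 2.69 in VCP TG).

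**Figure D3:**
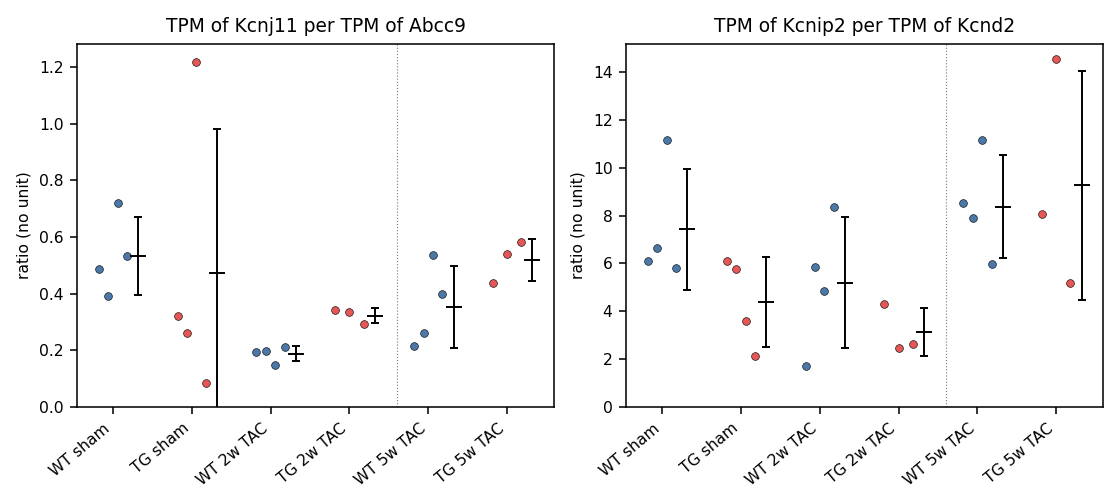
TPM of Kcnj11 per TPM of Abcc9 (left) and of Kcnip2 per TPM of Kcnd2 (right) in each library (points; bars are mean ± SD), by group (TG, VCP TG; w, weeks); the bar of Kcnj11 per Abcc9 in VCP TG sham runs below the axis. The WT 2 weeks TAC ratios of Kcnj11 to Abcc9 (0.150 to 0.211) lie below the WT sham ratios (0.391 to 0.721) and the VCP TG TAC ratios of 2 weeks (0.292 to 0.342).

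The gap depended on the scaling at both times. At 5 weeks the rescaled difference of Kcnj11 was 0.39 ± 0.29 (adjusted p = 0.774), and the rescaled groups overlapped (32.6 to 70.03 in WT, 52.4 to 80.6 in VCP TG). Mitochondrial genes took 53.0% to 55.6% of TPM in the WT libraries of 5 weeks and 47.6% to 50.8% in VCP TG, and 55.5% to 60.9% against 40.2% to 51.6% under 2 weeks of TAC; the part of this share in the result was not tested. At 2 weeks 19.0% of all genes lay higher without overlap in VCP TG, and 2 of the 9 members did so, Kcnj11 and Kcnj2. The median of all genes was 0.16, and -0.17 after rescaling to nuclear protein-coding genes. After rescaling, Kcnj11 was 0.33 (adjusted p = 0.717) and its groups overlapped (23.8 to 42.3 rescaled TPM in WT, 34.5 to 49.6 in VCP TG). Kcnj2 stood at 5.14 to 5.41 TPM in the 4 WT TAC libraries and at 6.47 to 8.13 TPM in the 3 VCP TG TAC libraries, a difference of 0.37 ± 0.30 (adjusted p = 0.907), and 0.04 after rescaling. Olfactory and vomeronasal receptor genes, a gauge of background, averaged 0.337 to 0.895 TPM in the VCP TG TAC libraries and 0.124 to 0.220 TPM in the WT TAC libraries, and the part of background in the result was not tested. The fit of all groups called 0.0901% of genes and 0 of 9 members here. The fit of the TAC libraries alone called 0.0565% and 0 of 9, and 9.58% of genes and 0 of 9 members had an unadjusted p under 0.05 in the fit of all groups.

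Kcnip2, the KChIP2 gene, encodes the accessory subunit of the transient outward current. Kcnip2 was at 51.7, 75.7, 37.3 and 28.5 TPM in WT sham, at 81.3, 42.9, 22.7 and 14.1 TPM in VCP TG sham and at 15.9, 55.7, 41.1 and 57.3 TPM in WT 2 weeks TAC. The VCP TG 2 weeks TAC libraries held 24.7, 19.4 and 25.1 TPM. In TPM the 4 libraries rich in atrial transcripts were the 4 lowest of the 15, at 14.1 to 22.7 TPM against 24.7 to 81.3 TPM in the others. After rescaling those 4 libraries were at 46.3 to 59.7 TPM. VCP TG 2 weeks TAC replicates 1 and 3 were then at 47.4 and 58.9 TPM, so the ranges overlapped. Kcnj3, a pore of the acetylcholine-gated current that is abundant in atria, was higher in those 4 libraries (18.3 to 75.5 TPM) than in the others (5.57 to 15.9 TPM). Its partner Kcnj5 overlapped, at 5.31 to 28.3 TPM in those 4 libraries and 5.39 to 11.8 TPM in the others.

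Kcnip2 in VCP TG against WT under 2 weeks of TAC depended on whether those libraries were kept. With all libraries the difference was -0.71 ± 0.52 (adjusted p = 0.859), or -0.71 ± 0.40 in the TAC libraries alone (adjusted p = 0.327), and neither passed. The library labelled WT 2 weeks TAC replicate 1, at 15.9 TPM, was the only WT TAC library that did not lie above the VCP TG TAC libraries. Without it, the fit of the TAC libraries alone called Kcnip2 lower in VCP TG (-1.12 ± 0.16, adjusted p = 0.04998), 1 of 9 members against 0.101% of genes. Without both atrial-rich TAC libraries the same fit gave -1.002 ± 0.168 (adjusted p = 0.0408), 1 of 9 members against 0.335% of genes. The remaining groups were 41.1 to 57.3 TPM in WT and 24.7 to 25.1 TPM in VCP TG. In the fit of all groups neither set of libraries gave a call (adjusted p = 0.468 and 0.151). Kcnip2 was called in 2 of 12 alternatives of the fit of the TAC libraries alone, both without WT 2 weeks TAC replicate 1. Leaving out that library ends the overlap of the groups, so these calls are no separate test of the difference. Its rescaled Vcp was 345, on the VCP TG side, so atrial content and a possible label error cannot be told apart. At 5 weeks Kcnip2 was at 57.0, 26.9, 24.3 and 26.8 TPM in WT and at 24.5, 27.2 and 27.7 TPM in VCP TG (-0.25 ± 0.28, adjusted p = 0.908).

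Of the pore genes of this current, Kcnd2 lay above Kcnd3 in all TAC libraries of 2 weeks, in WT and in VCP TG. Kcnd2 was 7.04 ± 3.62 TPM in sham hearts of WT and 8.53 ± 1.20 TPM under TAC, a difference of 0.35 ± 0.31 (adjusted p = 0.664). Kcnd3 was at 7.06, 4.92, 4.31 and 3.48 TPM in WT sham and at 3.02, 2.93, 4.06 and 3.13 TPM in WT TAC (-0.44 ± 0.28, adjusted p = 0.545). There were 0.815 ± 0.357 TPM of Kcnd3 per TPM of Kcnd2 in WT sham and 0.392 ± 0.0878 in WT TAC, with ranges that overlap. In VCP TG, Kcnd3 was 5.78 ± 2.56 TPM without and 3.604 ± 0.477 TPM with TAC (-0.47 ± 0.31, adjusted p = 0.942). Under 5 weeks of TAC the order of the pores varied between libraries. There were then 0.485 to 2.09 TPM of Kcnd3 per TPM of Kcnd2 in WT and 0.656 to 4.98 in VCP TG. Kcna4, the pore of the slow transient outward current, was at or below 2.53 TPM in every library.

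Irx3 and Irx5, homeobox regulators known to act on Kcnd2, and Klf15, a regulator known to act on Kcnip2, were measured too. Irx3 fell by 1.47 ± 0.19 in the 8 WT libraries (5.02 ± 1.51 TPM in sham, 1.14 ± 0.230 in TAC; adjusted p = 0.0120), and by 0.98 ± 0.19 with the GC trend removed (adjusted p = 0.0519), which ended the call. In the fit of all groups its adjusted p was 0.0996. The difference between genotypes in the TAC response of Irx3 was 1.52 ± 0.44 (adjusted p = 0.872). Irx5 (-0.70 ± 0.21, adjusted p = 0.0637) and Klf15 (-0.52 ± 0.27, adjusted p = 0.264) did not pass in the 8 WT libraries.

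The delayed rectifier gene Kcna5, which encodes Kv1.5, the pore of the ultrarapid current, had a lower mean in the other 3 groups of the 2-week table than in WT sham. It was at 4.48, 5.28, 13.2 and 9.39 TPM in WT sham, at 4.62, 2.96, 5.45 and 1.41 TPM in VCP TG sham, at 2.18, 4.68, 2.75 and 3.73 TPM in WT TAC and at 2.51, 1.56 and 3.08 TPM in VCP TG TAC. WT TAC and VCP TG sham each overlapped WT sham. The WT TAC difference was -0.997 ± 0.334 (adjusted p = 0.331), or -0.997 ± 0.302 in the 8 WT libraries (adjusted p = 0.0671). Neither passed the test, and the second passed without WT sham replicate 1 (-1.20, adjusted p = 0.0421). In sham hearts the transgene difference was -0.97 ± 0.33 (unadjusted p = 0.00875, adjusted p = 1).

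That comparison, VCP TG against WT sham, called 0% of genes and 0 of 9 members. Kcna5 was the 1 of 9 members with an unadjusted p under 0.05, against 3.96% of genes, and 0 of 9 members had groups without overlap, against 1.04% of genes. Kcnj11 differed by -0.85 ± 0.46 (adjusted p = 1), and by -0.21 ± 0.24 without VCP TG sham replicate 4. Kcnq1, the pore of the slow delayed rectifier, differed by 0.75 ± 0.37 (adjusted p = 1), and by 0.34 ± 0.31 without VCP TG sham replicate 3. Without VCP TG sham replicate 4 it differed by 1.19 ± 0.29 (limma adjusted p = 0.551). Without the libraries rich in atrial transcripts it differed by 0.78 ± 0.23 (limma adjusted p = 0.567).

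Kcnq1 and Abcc8 peaked in VCP TG sham replicate 3. Kcnq1 was at 24.5, 15.1, 46.7 and 7.13 TPM in VCP TG sham, against 9.19 to 11.8 TPM in WT sham, and Abcc8 at 7.87, 7.35, 23.0 and 2.95 TPM, against 4.85 to 9.18 TPM. VCP TG sham replicate 3 held the highest value of both genes, and of the atrial marker sum, while VCP TG sham replicate 4 held the lowest of both genes in its group. In the TAC groups Kcnq1 stayed between 6.38 and 13.7 TPM. Kcne1, the accessory subunit of Kcnq1, was at 0.227 to 1.25 TPM in WT sham.

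**Figure D4:**
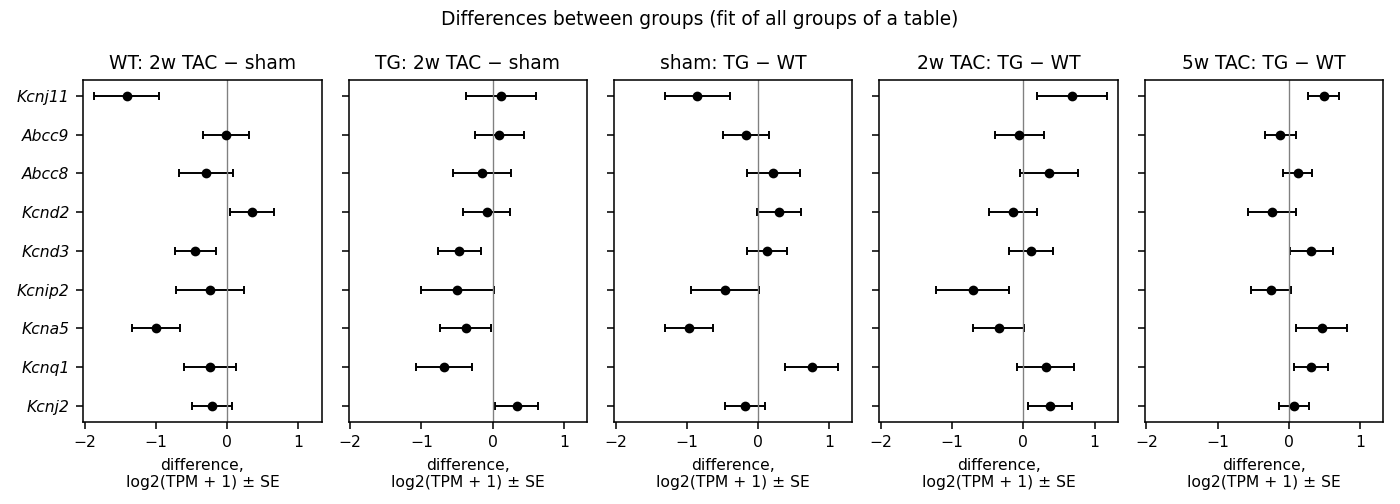
Differences in log2(TPM + 1) ± standard error (horizontal axes) for the 9 channel genes (rows) in 5 comparisons, each from the limma fit of all groups of its table; w, weeks, and TG, VCP TG. Kcnj11 lies at -1.41 in WT TAC against sham and at 0.68 and 0.49 in VCP TG against WT under TAC; no point in these panels passed the test.

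Across the 15 libraries of the 2-week table the members followed different patterns. Over log2(TPM + 1), the highest Pearson correlation between members was 0.879, for Abcc8 and Kcnq1, followed by 0.781 for Abcc9 and Kcnip2. Kcnj11 correlated by 0.209 with its partner subunit Abcc9. The genes most like Kcnj11, of 7432 protein-coding genes with a mean of at least 5 TPM, were Sptb (0.984), Bag6 (0.982) and Kif1c (0.982). Those most like Abcc9 were Asb15 (0.976), Mtfp1 (0.956) and Gmnn (0.948), and those most like Kcnip2 were Lrrc2 (0.951), Mrps34 (0.942) and S100a1 (0.940). Kcna5 was most like Mcf2l (0.962) and Kcnj2 most like AI464131 (0.960). These correlations describe the same 15 libraries, which share scaling and the 4 atrial-rich libraries.

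Of 51 other potassium channel genes, 50 were found in the tables and 31 passed the filter on low values at 2 weeks. In the fit of all groups 0 of 31 were called in any comparison of 2 weeks, and 0 of 29 at 5 weeks. In the 8 WT libraries 2 of 26 were called lower under TAC, and none higher. Kcng2, a silent subunit that joins other delayed rectifier pores, fell by 0.93 ± 0.17 (29.1 ± 3.62 TPM in sham, 14.8 ± 2.55 in TAC; adjusted p = 0.0176). Kcnk3, the acid-sensitive leak channel TASK1, fell by 0.92 ± 0.19 (57.9 ± 7.03 and 30.6 ± 7.20 TPM; adjusted p = 0.0259). With the GC trend removed neither was called (adjusted p = 0.121 and 0.138), whereas Kcnj11 was. The call of Kcng2 was lost without WT sham replicate 3 (adjusted p = 0.0615) or WT 2 weeks TAC replicate 3 (0.0704). That of Kcnk3 was lost without WT sham replicate 3 (adjusted p = 0.0818) or WT 2 weeks TAC replicate 2 (0.0501) or 3 (0.0912).

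The median log2 difference of the 26 genes was -0.17 and that of the 9 members -0.24, against -0.16 for all 13709 genes. Of the 9 members, 8 lay below 0 in that fit, against 67.9% of all genes, and 7 lay below the median of all genes. In the fit of all groups 8 of 9 members lay below 0, against 64.2% of all genes, and with the GC trend removed 4 of 9 did. That step moves the values of all genes, and their share below 0 after it is not given here. The 2 counts therefore do not show a change of the members alone. Kcnh2, the pore of the rapid delayed rectifier, was at 15.3 ± 6.22 TPM in WT sham and 9.61 ± 0.472 TPM under TAC (-0.54 ± 0.25, adjusted p = 0.192). In VCP TG against WT under TAC it was 0.61 ± 0.37 at 2 weeks (adjusted p = 0.729) and 0.65 ± 0.22 at 5 weeks (adjusted p = 0.904), with no overlap at either time. Kcnj12, another inward rectifier pore, did not overlap either, at 0.62 ± 0.35 (adjusted p = 0.679) and 0.67 ± 0.20 (adjusted p = 0.904). Of the other channel genes, 10 of 31 lay higher without overlap in VCP TG at 2 weeks and 4 of 29 at 5 weeks, against 19.0% and 3.40% of all genes. Rescaled, both Kcnh2 and Kcnj12 overlapped at both times. Kcnj5, the partner of Kcnj3, overlapped between genotypes at both times.

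**Figure D5:**
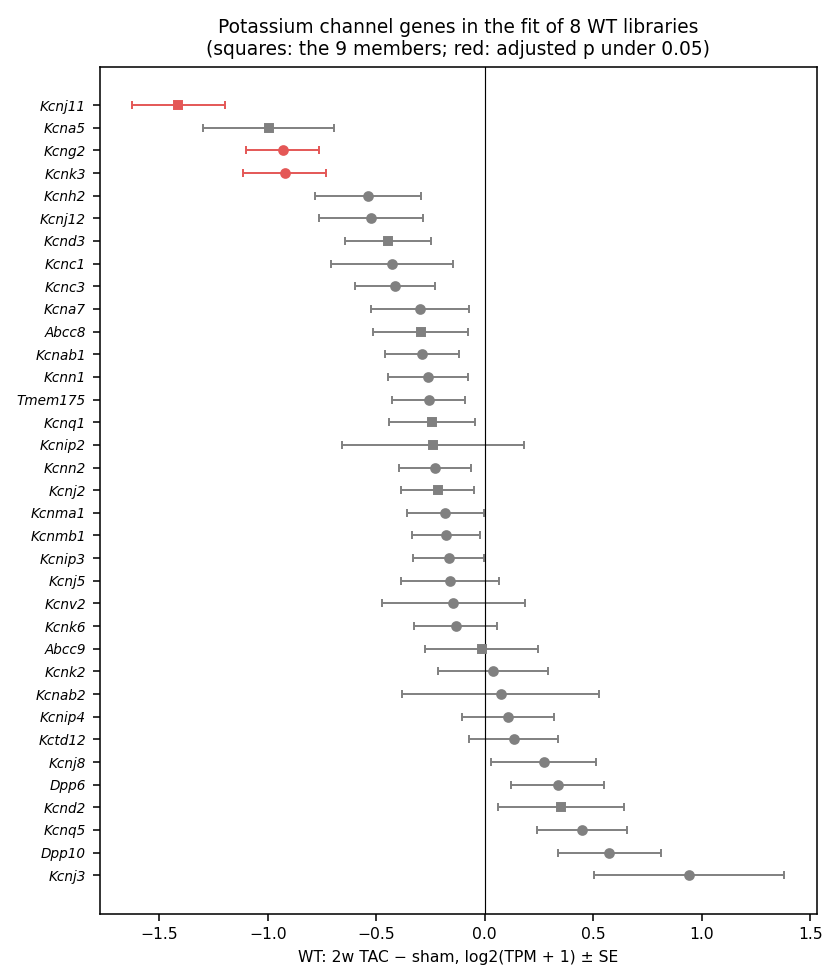
Differences in log2(TPM + 1) ± standard error between WT 2 weeks TAC and WT sham in the fit of the 8 WT libraries (horizontal axis) for the 9 members (squares) and 26 other potassium channel genes (circles), ordered by value; red marks an adjusted p under 0.05. Kcnj11 (-1.41) lies lowest, and Kcng2 and Kcnk3 are the others in red.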

How the data were processed

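RNA was measured in 22 left ventricular libraries. The authors deposited 2 tables of TPM, 1 for the 15 libraries of 2 weeks and 1 for the 7 of 5 weeks, with 30735 genes each; the unit was read from the values, which sum to the same total in each library. The submitters' processing notes list Trimmomatic 0.35, kallisto 0.43.1, STAR 2.5.4b, DESeq2 and GRCm38 with no role or order. TPM keeps no read number, so depth is unknown, and a change of abundant transcripts moves all other values. Columns were matched to samples by name, and 0 were left over. GENCODE M21 named 29995 genes.

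The tables were tested apart with limma 3.58.1 (R 4.3.3, variance trend, robust empirical Bayes) on log2(TPM + 1), two-sided, keeping genes that reached 1 TPM in 3 or more libraries, with Benjamini-Hochberg adjustment over all of them and a threshold of 0.05. The 4 groups of 2 weeks were fitted together, and the compared groups alone as an alternative. Other alternatives changed the pseudocount, filter, scaling, GC trend, weights, replicate block and libraries. The code was tested on simulated data. Libraries were not identical in any pair (highest correlation 0.983). The members, the lists and the libraries left out were chosen with earlier results of these data known; the GC trend and the alternatives of the 2 fits of compared groups alone were added after seeing the data. All members are named; of other channel genes, 8 were named for their role (1 more is not reported here), with up to 4 of the largest calls per direction. Likeness took the 3 best protein-coding genes per member.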

Additional observations from a re-analysis of the deposited data

Results flagged for a closer look

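In 36 groups of 4 libraries (9 genes in 4 groups), the highest or lowest library was compared with the rest of its group by Dixon's rule, which flags about 1 in 20 groups by chance. It marked 2. Kcnj11 was at 22.03 TPM in WT sham replicate 4, below the other 3 libraries of its group. Without that library the fall under TAC in the 8 WT libraries was -1.58 (limma adjusted p = 0.0137). Kcnip2 was at 57.0 TPM in WT 5 weeks TAC replicate 1, above the other 3 of its group.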

How the results depend on the processing

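Counts are genes called by limma in the fit of all groups unless stated, and a cause of a change was not tested. As reported, 0 genes were called for the transgene in sham, 0 for TAC in WT, 120 for TAC in VCP TG, 14 for the transgene under 2 weeks of TAC, 1 for the difference in TAC response and 1 for the transgene at 5 weeks. The 8 WT libraries alone gave 964 and the 7 TAC libraries alone gave 8. In the same order of comparisons, a pseudocount of 0.1 gave 1, 8, 2, 1 and 0 at 2 weeks. A pseudocount of 5 gave 210 for TAC in VCP TG, 28 for the transgene under TAC, 5 for the difference and 0 at 5 weeks. Without a filter those 3 comparisons of 2 weeks gave 1846, 634 and 24, and with a filter of 5 TPM they gave 6, 1 and 0. Kcnd2 did not pass the filter of 5 TPM at 5 weeks and has no value there. Quantile normalization gave 2 for TAC in WT, 9 for the transgene under TAC and 2 for the difference, and limma without trend and robust steps gave 2 for the difference. Rescaling to nuclear protein-coding genes gave 25 (6 higher, 19 lower) for TAC in WT, 7 (4 higher, 3 lower) for TAC in VCP TG, 1 for the transgene under TAC and 0 for the difference. In the fits of the compared groups alone it gave 1725 of 13709 genes (273 higher, 1452 lower) in WT, with 1 of 9 members called. It gave 9 for TAC in VCP TG and 16 for the transgene under TAC. Removing the GC trend gave 1, 75, 4 and 0 for TAC in WT, TAC in VCP TG, the transgene under TAC and the difference, and 127 in the 8 WT libraries. The compared groups alone gave 2 in sham, 964 for TAC in WT with 1 member, 53 for TAC in VCP TG and 8 for the transgene under TAC.

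Of 15540 genes, array weights called 2568 for TAC in WT in either direction, with 3 of 9 members lower (Kcnj11, Kcnd3 and Kcna5). They called 1191 for TAC in VCP TG, with 1 of 9 members lower (Kcnq1). For the transgene under TAC they called 2607, with 1 of 9 members higher (Kcnj11), and for the difference 36. Calls were common in the first 3 of these comparisons, so 1 member of 9 does not stand apart from all genes. In the groups alone array weights gave 2364 of 13709 genes in WT. For the transgene under TAC they gave 1371 of 14162 genes, with 2 of 9 members higher (Kcnj11 and Kcnj2). Without the 4 libraries rich in atrial transcripts the counts were 1202 for TAC in WT with 1 member, 719 for TAC in VCP TG, 640 for the transgene under TAC and 0 for the difference, and in the groups alone 423 in WT and 884 for the transgene under TAC with 1 member. Without the 5 libraries whose rescaled Vcp goes against the label there were 2 in sham, 17 for TAC in VCP TG, 9 for the transgene under 2 weeks of TAC and 0 at 5 weeks. Leaving out 1 library at a time gave 0 to 1 in sham, 0 to 1 for TAC in WT, 1 to 753 for TAC in VCP TG, 1 to 15 for the transgene under TAC, 0 to 4 for the difference and 0 to 3 at 5 weeks. In the 8 WT libraries it gave 49 (without WT 2 weeks TAC replicate 3) to 2148 (without WT sham replicate 4) genes and 1 to 2 members, and in the TAC libraries alone 0 to 777 genes and 0 to 1 members.

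Of 1403 member values under alternatives, 109 had another sign, and in 92 of these both values lay within 1 standard error of 0; the other 17 reversed. With array weights the sham value of Kcnj2 was 0.21, and under TAC in VCP TG Kcnj11 was -0.27, Abcc9 -0.25 and Kcnj2 -0.043. Without the atrial-rich libraries the sham values were 0.39 for Abcc9, 0.38 for Kcnip2 and 0.29 for Kcnj2, those of TAC in VCP TG were -0.38 for Abcc9 and -0.075 for Kcnj2, and the difference for Abcc9 was -0.53. Leaving out 1 library moved TAC in VCP TG between -0.55 and 0.31 for Abcc8 and between -0.52 and 0.48 for Kcnj11, in both cases from without VCP TG sham replicate 4 to without replicate 3. Removing the GC trend in the 8 WT libraries gave 0.075 for Abcc8 and 0.11 for Kcnq1. Rescaling the TAC libraries alone gave -0.23 for Kcnd3 and -0.046 for Kcnq1.

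Groups share replicate numbers, which the labels tie to no animal. Deviations of same-numbered WT and VCP TG sham libraries correlated by 0.114, 0.271, 0.206 and 0.0746, and those of WT sham and TAC by at most 0.109. Most libraries did not correlate best with their own number. Those that did were replicates 2 and 3 between the sham groups and replicate 3 between the groups of 5 weeks. The numbers were therefore not taken to pair the libraries. With the replicate block 2 genes were called for TAC in WT, 5 for the transgene under TAC, 0 for the difference and 0 at 5 weeks, with 0 of 9 members in each. In the 8 WT libraries the replicate block gave 659 of 13709 genes and 1 of 9 members, Kcnj11 (-1.41 ± 0.22, adjusted p = 0.0127), and in the TAC libraries alone 1 gene. Read depth is not known, so counting error could not be set beside the spread between libraries.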
